A study of Mus musculus with 4 samples.

Results

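Heat shock proteins are chaperones, proteins that help others fold, stay soluble or be refolded after damage. They were described here in mouse liver by all probe sets annotated to 10 genes: Hsp90aa1, Hsp90ab1, Hspa1a, Hspa1b, Hspa8, Hsph1, Dnajb1, Hspb1, Hspd1 and Hspe1. A probe set is the group of array probes that gives 1 signal for a transcript. Of the 10 genes, 9 had at least 1 probe set with a single gene symbol, 20 probe sets in all out of 22626 tested, and Hsp90ab1 was not analysed here. The control group was 2 wild-type mice labelled control on the C57/BL6 background, and the starved group was 2 wild-type mice of that background without food for 24 h. All 4 mice were 1 month old, and total RNA of each liver was run on 1 Affymetrix array. The description field of the labels names starved livers as those of injected mice and control livers as not injected, with no agent given. The groups here follow the titles and the treatment field, and an injection cannot be told apart from starvation. The labels give neither the time of day of sampling nor the sex of the mice. The labels call the arrays of a group biological replicates.

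The cytosolic Hsp70 proteins, Hspa1a, Hspa1b and Hspa8, bind exposed stretches of unfolded proteins in a cycle driven by ATP. J proteins such as Dnajb1 bring substrates and start that cycle, and Hsph1, an Hsp110 protein, releases the nucleotide to end it. Hsp90 receives clients from Hsp70, including steroid hormone receptors and kinases, small heat shock proteins such as Hspb1 hold unfolded proteins without ATP, and Hspd1 with its lid Hspe1 folds proteins inside mitochondria. Under proteotoxic stress the factor Hsf1 binds heat shock elements, inverted repeats of GAA and TTC, and induces many of these genes, while Hspa8 and others are made constitutively. In liver, body temperature and feeding rhythms are also known to drive Hsf1 targets over the day.

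The stretches of DNA upstream of the start sites are shown because heat shock elements lie there in genes that follow Hsf1. RefSeq promoter windows (GRCm38.p6, 250 bases before to 50 bases after a start site) were matched for 7 of the 10 genes, Hspa1a, Hspa1b, Hsph1, Dnajb1, Hspb1, Hspd1 and Hspe1. The windows were searched for GAANNTTC and TTCNNGAA, each of which reads the same on both strands. They were also searched for the longer forms GAANNTTCNNGAA and TTCNNGAANNTTC, which are each other on the opposite strand and contain the short forms. The last 150 bases before the start site are printed 5′ to 3′ on the strand of the gene, with matches to the short forms in capitals. They lie at chr17:34959239-34959388 (minus strand) for Hspa1b, chr17:34972157-34972306 (minus) for Hspa1a, chr5:135887769-135887918 (plus) for Hspb1, chr5:149636337-149636486 (minus) for Hsph1 and chr1:55087998-55088147 (plus) for Hspe1.
Hspa1b: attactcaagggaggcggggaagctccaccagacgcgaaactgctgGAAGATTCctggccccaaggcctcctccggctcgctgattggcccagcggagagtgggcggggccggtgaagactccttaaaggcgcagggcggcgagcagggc
Hspa1a: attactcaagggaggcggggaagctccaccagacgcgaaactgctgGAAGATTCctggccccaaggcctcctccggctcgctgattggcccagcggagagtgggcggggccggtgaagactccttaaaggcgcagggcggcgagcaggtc
Hspb1: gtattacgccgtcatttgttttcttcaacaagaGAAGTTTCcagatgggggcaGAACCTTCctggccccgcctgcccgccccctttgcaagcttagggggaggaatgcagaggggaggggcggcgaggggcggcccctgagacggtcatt
Hsph1: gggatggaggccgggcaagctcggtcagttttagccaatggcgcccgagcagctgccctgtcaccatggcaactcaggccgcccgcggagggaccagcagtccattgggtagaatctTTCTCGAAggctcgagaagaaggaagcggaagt
Hspe1: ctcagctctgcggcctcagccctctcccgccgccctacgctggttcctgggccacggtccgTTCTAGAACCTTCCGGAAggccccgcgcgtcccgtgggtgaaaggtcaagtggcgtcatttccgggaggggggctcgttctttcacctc

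The printed stretches of Hspa1a and Hspa1b differed at 1 of 150 bases, and their whole windows at 4 of 300. Their GAANNTTC match began at position -104 from the start site in each. In Hspe1 the matches run on without a break, so that both longer forms are present, from -89. A window of Hspd1, which faces the other way, overlaps 285 of the 300 bases of the Hspe1 window and holds the same run. A short form was present in a window of 6 of the 7 matched genes, all but Dnajb1, against 17.0% of 27025 genes in the table. A longer form was present in 3 of the 7, Hsph1, Hspd1 and Hspe1, against 0.662% of all genes, and in Hsph1 it lay after the start site. Of all 32851 windows, 7.86% held GAANNTTC, 8.52% TTCNNGAA, 0.31% GAANNTTCNNGAA and 0.32% TTCNNGAANNTTC. These matches describe the letters only.

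Liver markers were high on all 4 arrays, with log2 signals of transthyretin (Ttr), a plasma protein made by hepatocytes, between 15.03 and 15.13. Across probe sets, which are not independent, Pearson's r was 0.992 for the pair of control arrays, 0.994 for the pair of starved arrays and 0.986 to 0.991 for a control with a starved array. Control 2 stood apart in acute phase genes: the serum amyloid gene Saa3 read 12.36 there and 8.74 to 8.77 on the other arrays. The gap between 3′ and 5′ actin control probe sets, which widens as RNA breaks down, reached 2.06 on starved 1 against 1.76 to 1.85 on the other arrays, and that for Gapdh reached 0.86 against 0.48 to 0.65. Results on the heat shock genes are therefore given for each array.

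No heat shock probe set passed the test between starved and control liver. Values are log2 signals, so a difference of 1 is a doubling, and a change is positive where the mean of starved mice was the higher. By limma with Benjamini-Hochberg adjustment over all probe sets, 0 of the 20 had an adjusted p under 0.05, where 0.0575% of all probe sets did (13 of 22626). At an unadjusted p under 0.05 there was 1 of 20, against 11.5% of all probe sets, and it was lower in starved mice, as were 6.04% of all. That count rested on which starved mouse was kept: it was 8 of 20 without starved 2, against 9.46% of all probe sets, and 3 of 20 without starved 1, against 6.77%. With limma's trend and robust settings it was 3 of 20, against 11.5%. The starved arrays lay outside the range of the control arrays in 4 of 20, against 41.9% of all probe sets, and all 4 were probe sets of Hspa8. Of these, 3 lay above the controls and 1 below, where 21.3% of all probe sets lay above and 20.6% below. The median change over the 9 genes, each read from its probe set of highest mean, was -0.17, against 0.00 over all 12393 genes. Without starved 1 that median was 0.20, and without starved 2 it was -0.33. In whole liver, fewer cells of a type and less RNA per cell cannot be told apart. With 2 arrays against 2, an exact permutation test cannot go below p = 0.333, so it was not used.

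**Figure D1:**
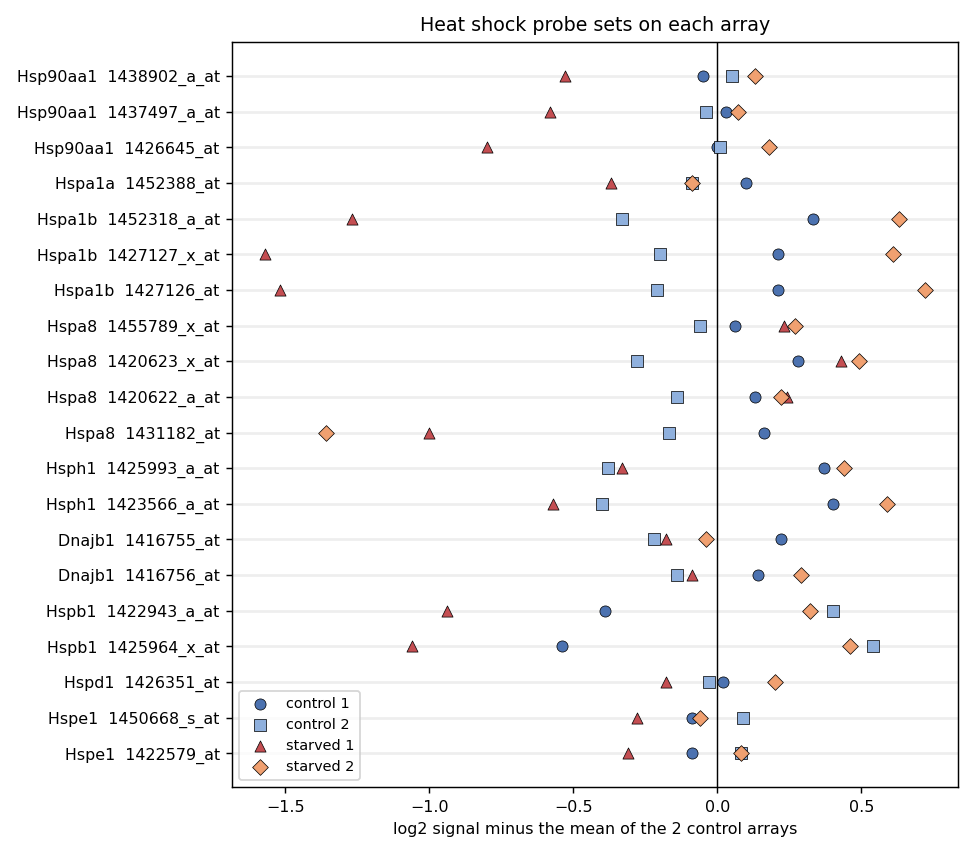
Log2 signal of each of the 20 heat shock probe sets on each array, minus the mean of the 2 control arrays (x axis), with 1 row per probe set and 1 symbol per array. Starved 1 (red triangles) is the leftmost symbol in 13 rows and starved 2 (orange diamonds) the rightmost in 12, with the control arrays between them in many rows.

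On each heat shock probe set outside Hspa8, the starved mice differed from each other more than the group means did. Over the 20 probe sets the median size of the difference was 0.52 between starved mice, against 0.14 over all probe sets. Between control mice it was 0.30, against 0.15, and control 1 was above control 2 in 14 of 20, against 54.8%. Starved 1 was the lowest of the 4 arrays in 13 of 20 heat shock probe sets, against 25.8% of all probe sets, and starved 2 the highest in 12 of 20, against 22.5%. Starved 2 was above starved 1 in 18 of 20 probe sets and in 9 of 9 genes, where over all probe sets the share was 49.8%. The count of genes depends on the probe set read for Hspa8. Starved 2 minus starved 1 was 0.05 on 1455789_x_at, the one used, and 0.06 on 1420623_x_at. It was -0.02 on 1420622_a_at and -0.36 on 1431182_at. The median of starved 2 minus starved 1 was 0.52 over the heat shock probe sets and 0.00 over all. A difference of more than 1 between the starved arrays was found in 6 of 20 heat shock probe sets and in 0.654% of all (148 probe sets). These counts compare 1 mouse with 1 mouse, so no test was made, and probe sets of the same gene are not independent.

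**Figure D2:**
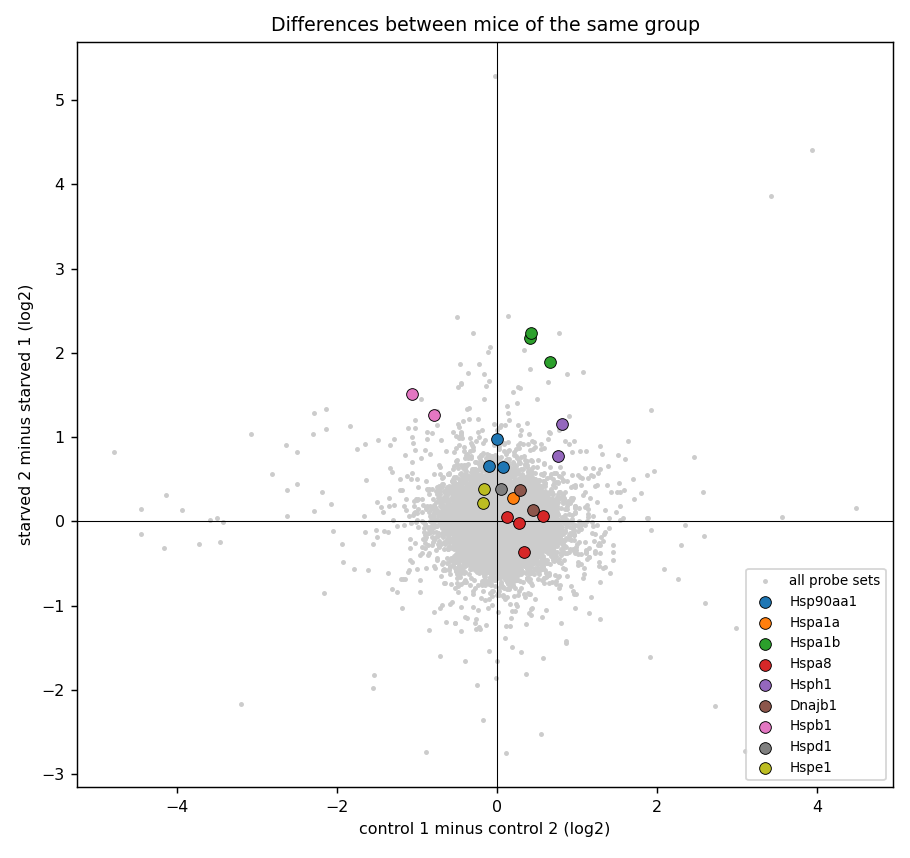
Difference between the control mice (control 1 minus control 2, x axis, log2) and between the starved mice (starved 2 minus starved 1, y axis, log2) for all 22626 probe sets (grey) and the 20 heat shock probe sets (coloured by gene). The 3 Hspa1b probe sets sit at 1.89 to 2.24 on the y axis, where few grey points lie, and the Hspb1 and Hsph1 probe sets lie on opposite sides of the vertical line.

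Hspa1b, the stress-inducible cytosolic Hsp70, varied the most among the heat shock genes. Its probe set 1427126_at read 9.25 and 8.83 in control 1 and control 2, and 7.52 and 9.76 in starved 1 and starved 2. Starved 1 was the lowest array and starved 2 the highest, so the control mice lay between the starved mice. The probe sets 1427127_x_at (9.41, 9.0, 7.63 and 9.81, arrays in the same order) and 1452318_a_at (11.28, 10.62, 9.68 and 11.58) gave that order too. Starved 2 was 4.74-fold, 4.53-fold and 3.72-fold above starved 1 on the 3 probe sets. Only 11 of 22626 probe sets, itself included, differed as much between the starved arrays as 1427126_at, which is 0.0486%. The group means of 1427126_at were 9.04 ± 0.30 and 8.64 ± 1.59 (control and starved, SD, n = 2), and its change was -0.40 ± 0.68 (SE; 95% interval -2.07 to 1.28; limma, adjusted p = 0.895). The change was 0.73 without starved 1 and -1.52 without starved 2 (adjusted p = 0.634 and 0.171, limma), so the direction rested on which starved mouse was kept. The higher gap between 3′ and 5′ control probe sets on starved 1 goes with its low Hspa1b signal, and its part in it was not tested.

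Hspa1a, the neighbouring gene for a nearly identical inducible Hsp70, was read by 1 probe set, 1452388_at, at 5.68, 5.49, 5.21 and 5.49 in control 1, control 2, starved 1 and starved 2. Starved 1 was again the lowest, but the range was narrow and the mean signal lay at the 30.4th percentile of all probe sets. The change was -0.23 ± 0.15 (SE; 95% interval -0.60 to 0.13; limma, adjusted p = 0.623). Transcripts of Hspa1a and Hspa1b can hybridise to each other's probes, so the signal cannot be assigned to 1 of the 2 genes with certainty.

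Hspa8, the constitutive Hsc70, was the heat shock gene whose groups did not overlap, and its probe sets disagreed in direction. On 1455789_x_at it read 13.59 and 13.47 in control 1 and 2 and 13.76 and 13.80 in starved 1 and 2. Each starved mouse lay above each control mouse there, and likewise on 1420623_x_at (12.53, 11.97, 12.68 and 12.74) and 1420622_a_at (11.56, 11.29, 11.67 and 11.65). Their changes were 0.25 ± 0.12, 0.46 ± 0.20 and 0.23 ± 0.14 (SE), with adjusted p = 0.483, 0.458 and 0.585 in limma. On these 3 probe sets starved 1 and starved 2 differed by no more than 0.06.

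The fourth Hspa8 probe set, 1431182_at, read 7.14, 6.81, 5.98 and 5.62 in control 1, control 2, starved 1 and starved 2. Both starved mice were below both control mice, with a change of -1.17 ± 0.18 (SE; 95% interval -1.62 to -0.73), 2.25-fold lower. It had the smallest p of the 20 probe sets (unadjusted p = 0.000725, adjusted p = 0.106, limma) and was the 1 probe set past an unadjusted p of 0.05. As the groups do not overlap on it, its direction could not reverse without any 1 array, and the changes ran from -1.35 to -0.99. With the mean of all 4 probe sets the change of Hspa8 was -0.06, where the probe set of highest mean gave 0.25, so the direction for the gene depends on the probe set read. Which transcript 1431182_at reads was not given in the sources used here.

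**Figure D3:**
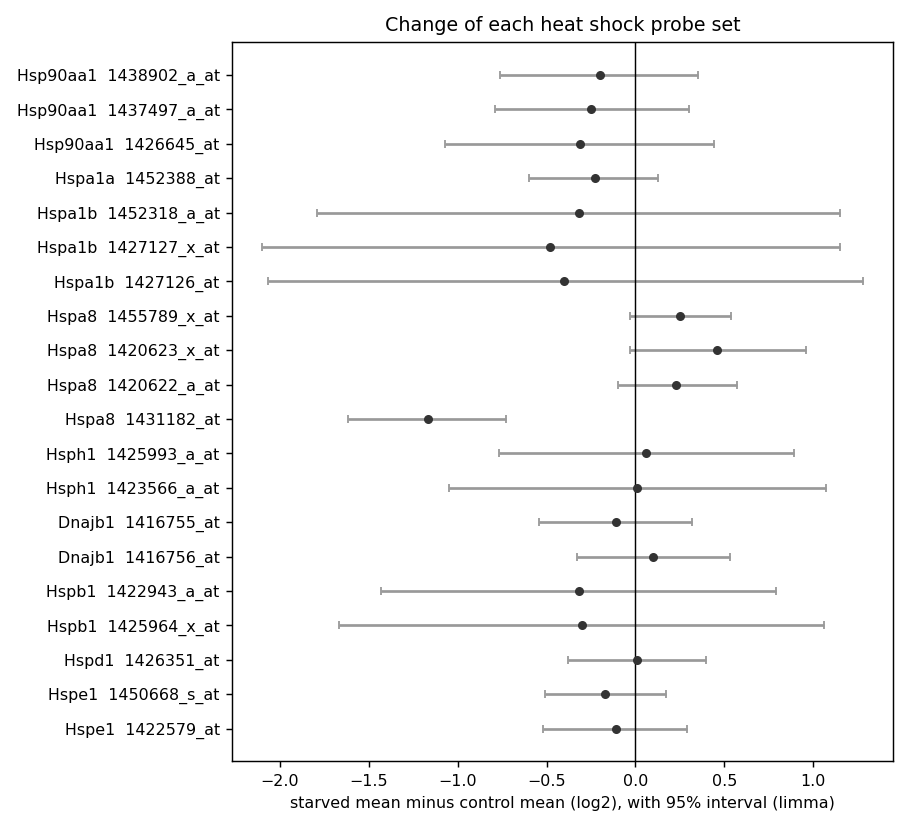
Change of each of the 20 heat shock probe sets, as the difference of the group means (x axis; positive, higher in starved mice, log2 scale) with the 95% interval from limma. The interval of Hspa8 1431182_at, -1.62 to -0.73, is the 1 interval that does not include 0, before adjustment for the number of probe sets, and the widest intervals are those of Hspa1b and Hspb1.

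Hsph1, the Hsp110 exchange factor of Hsp70, split the mice across the groups. Its probe set 1425993_a_at read 10.58 and 9.83 in control 1 and 2 and 9.88 and 10.65 in starved 1 and 2. Control 1 and starved 2 were high and control 2 and starved 1 low, so the groups overlapped fully. Starved 2 was 1.71-fold above starved 1 and control 1 was 1.69-fold above control 2. The probe set 1423566_a_at gave 8.59, 7.79, 7.62 and 8.78, with 2.24-fold and 1.75-fold for the same differences. The changes were 0.06 ± 0.34 and 0.01 ± 0.43 (SE; limma, adjusted p = 0.981 and 0.999), and the intervals, -0.77 to 0.89 and -1.05 to 1.07, leave changes of up to about a doubling possible in either direction.

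Dnajb1, the J protein that works with inducible Hsp70, had smaller differences in the same sense. On 1416755_at it read 9.79, 9.35, 9.39 and 9.53, and on 1416756_at 8.42, 8.14, 8.19 and 8.57, in control 1, control 2, starved 1 and starved 2. Control 2 was the lowest array on each and starved 1 the next lowest. The changes were -0.11 ± 0.17 and 0.10 ± 0.18 (SE; limma, adjusted p = 0.888 and 0.897), of opposite sign and each smaller than its error.

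Hsp90aa1, the stress-inducible cytosolic Hsp90, was low in 1 starved mouse only. Its 3 probe sets read 12.07, 12.17, 11.59 and 12.25 (1438902_a_at), 11.23, 11.16, 10.62 and 11.27 (1437497_a_at) and 11.05, 11.06, 10.25 and 11.23 (1426645_at) in control 1, control 2, starved 1 and starved 2. On each, starved 1 lay below the other arrays and starved 2 just above them, while the control mice differed by no more than 0.10. Starved 2 was 1.57-fold to 1.97-fold above starved 1, and a difference as large as that of 1426645_at was found in 0.707% of all probe sets. The changes were -0.20 ± 0.23, -0.25 ± 0.22 and -0.31 ± 0.31 (SE; limma, adjusted p = 0.815, 0.75 and 0.78). Without starved 1 they were 0.13, 0.08 and 0.17, and without starved 2 they were -0.53, -0.57 and -0.80.

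Hspb1, the small heat shock protein Hsp25, differed between mice of both groups. Its probe set 1422943_a_at read 8.90 and 9.69 in control 1 and 2 and 8.35 and 9.61 in starved 1 and 2. Here control 2, not control 1, was the higher control, and starved 1 was again the lowest array. On 1425964_x_at (8.47, 9.55, 7.95 and 9.47) starved 2 was 2.86-fold above starved 1, a difference found in 0.217% of all probe sets, and the control difference of -1.07 was as large in 0.835%. The changes were -0.32 ± 0.45 and -0.30 ± 0.55 (SE; limma, adjusted p = 0.863 and 0.906). Among the lists of other genes, control 2 was also the array with the highest acute phase genes and neutrophil calprotectin genes (S100a8 7.67 against 5.45 to 6.55), and their part in its Hspb1 signal was not tested.

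Hspd1 and Hspe1, the mitochondrial chaperonin and its lid, which are transcribed from a shared region, had narrower ranges than Hspa1b, Hspb1 and Hsph1. Hspd1 (1426351_at) read 12.71, 12.66, 12.51 and 12.89 in control 1, control 2, starved 1 and starved 2, with a change of 0.01 ± 0.16 (SE; 95% interval -0.38 to 0.40; limma, adjusted p = 0.994). Hspe1 read 12.36, 12.54, 12.17 and 12.39 on 1450668_s_at and 9.92, 10.09, 9.70 and 10.09 on 1422579_at, with changes of -0.17 ± 0.14 and -0.11 ± 0.17 (SE; limma, adjusted p = 0.72 and 0.868). Starved 1 was the lowest array on all 3 probe sets. Starved 2 was above starved 1 by 0.38 on 1426351_at, 0.22 on 1450668_s_at and 0.38 on 1422579_at. Differences as large were found in 10.2%, 31.1% and 10.2% of all probe sets. The intervals of the 3 probe sets lay between -0.52 and 0.40, so a doubling or halving of either gene was outside them.

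The 5 genes whose 4 values lay closest to those of Hspa1b 1427126_at were Inhbe, which encodes an activin subunit made in liver, the guanylate-binding protein gene Gbp6, Id2, an inhibitor of helix-loop-helix factors, the ubiquitin ligase gene Rnf186 and Car3, a carbonic anhydrase. Closeness was the root mean square distance over 4 arrays after each profile was centred on its control mean, and it ran from 0.20 for Inhbe to 0.41 for Rnf186 and Car3. Inhbe read 9.0, 8.66, 7.67 and 9.71 in control 1, control 2, starved 1 and starved 2. Starved 2 was above starved 1 by 1.15 to 2.04 in the 5 genes. That direction follows from choosing genes by their likeness to Hspa1b on the same arrays, so it is no separate result.

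Other genes of the chaperone network were taken from 9 lists by role, which name 100 genes, 91 of them measured. None of the 91 passed the limma test, where 0.0646% of all genes did, and the median change was -0.02. At an unadjusted p under 0.05, 4 were higher and 7 lower, 12.1% of the 91, against 11.4% of all genes (5.31% higher and 6.05% lower). Starved 2 was above starved 1 in 45 of 91 genes, and the median of that difference was 0.00.

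**Figure D4:**
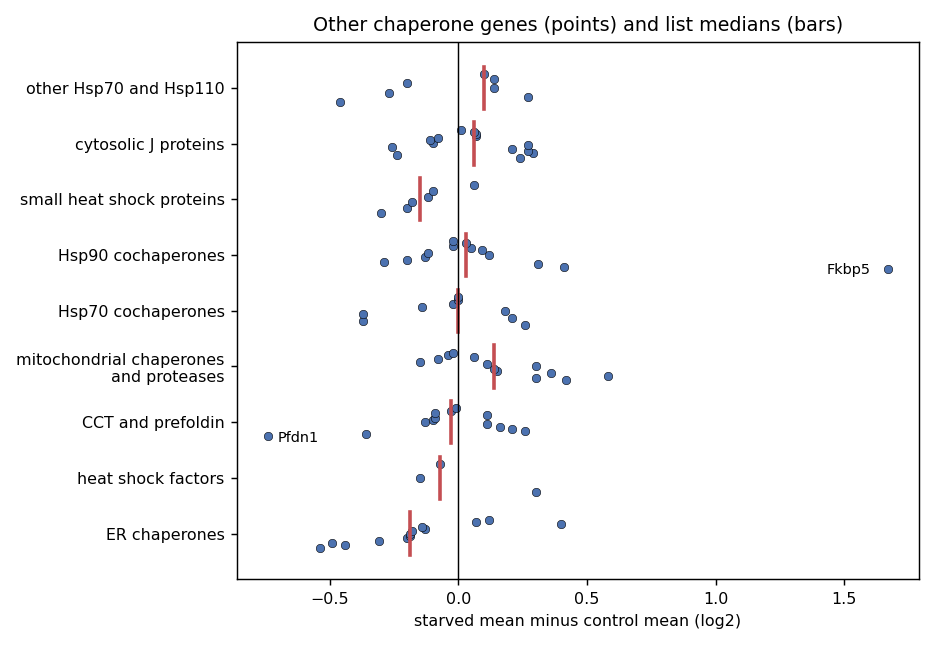
Change of each of the 91 other chaperone genes (points; x axis, log2 difference of the group means, positive where starved mice were higher) by list, with the median of each list as a red bar. The medians lie between -0.19 and 0.14, Fkbp5 is the point farthest to the right at 1.67 and Pfdn1 the point farthest to the left at -0.74.

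Of the 13 measured Hsp90 cochaperones, 0 passed the test and 2 were higher at an unadjusted p under 0.05, where 5.31% of all genes were. Fkbp5, which restrains the glucocorticoid receptor on Hsp90 and is itself a known target of that receptor, read 10.07 and 9.65 in control mice and 11.90 and 11.17 in starved mice. Both starved mice were well above both control mice, with a change of 1.67 ± 0.27 (SE), 3.19-fold, which did not pass over all probe sets (unadjusted p = 0.000932, adjusted p = 0.112, limma). Here starved 1 was the higher of the starved mice, the reverse of Hspa1b. The import receptor Tomm70a, which docks Hsp90 at mitochondria, changed by 0.41 ± 0.14 (adjusted p = 0.345, limma). Fkbp4, another Hsp90 cochaperone, changed by -0.29 ± 0.16, and the Hsp70-Hsp90 adaptor Stip1 by -0.20 ± 0.17. Chordc1, a cochaperone named after its values were seen, read 10.03, 9.60, 9.54 and 10.05 in control 1, control 2, starved 1 and starved 2, high and low in the same mice as Hsph1.

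Among 9 Hsp70 cochaperones and 14 cytosolic J proteins 0 passed, and none had an unadjusted p under 0.05. Bag3, which links Hsp70 to autophagy of damaged proteins, changed by -0.37 ± 0.20 (SE) and read 9.62, 9.11, 8.86 and 9.14 in control 1, control 2, starved 1 and starved 2. The J protein Dnaja1 read 12.58, 12.26, 12.32 and 12.63, so that control 1 and starved 2 were the higher arrays, as for Hsph1. Of 7 other Hsp70 and Hsp110 genes, Hspa14, a ribosome-associated Hsp70, had the smallest p, with 7.48 and 7.52 in control and 7.06 and 7.02 in starved mice and a change of -0.46 ± 0.11 (adjusted p = 0.24, limma). Of 6 small heat shock proteins, Hspb8 changed by -0.30 ± 0.14 (limma, adjusted p = 0.492). The factor Hsf2 changed by 0.30 ± 0.14 (adjusted p = 0.483, limma), and Hsf1 was not analysed here.

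Inside mitochondria, 9 of 13 chaperone and protease genes had a starved mean above the control mean, as did 50.9% of all genes, with a median change of 0.14. At an unadjusted p under 0.05, 2 of the 13 were higher, where 5.31% of all genes were. These were Hscb, a J protein of iron-sulphur cluster assembly, at 0.42 ± 0.12 (SE), and the inner membrane protease gene Afg3l2 at 0.30 ± 0.12 (limma, adjusted p = 0.308 and 0.425). The mitochondrial Hsp70, Hspa9, read 11.88, 11.90, 11.98 and 12.07, a change of 0.14 ± 0.11. Of 13 genes of the CCT chaperonin and prefoldin, which fold actin and tubulin, Pfdn1 had the smallest p. It read 9.89 and 9.85 in control and 9.05 and 9.22 in starved mice, with a change of -0.74 ± 0.12, 1.67-fold lower (unadjusted p = 0.00103, adjusted p = 0.117, limma). Its partner in prefoldin Vbp1 changed by -0.36 ± 0.14, and the CCT subunit Tcp1 by 0.26 ± 0.11.

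Endoplasmic reticulum chaperones showed lower means in starved mice in 10 of 13 genes, against 49.1% of all genes, with a median change of -0.19. At an unadjusted p under 0.05, 4 of the 13 were lower, where 6.05% of all genes were. They were the disulphide isomerases Pdia3 and Pdia6, with changes of -0.54 ± 0.13 and -0.49 ± 0.14 (SE), Sdf2l1 at -0.44 ± 0.11 and calnexin, Canx, at -0.31 ± 0.12, and none passed over all probe sets (limma, adjusted p = 0.236 to 0.427). The endoplasmic Hsp70, Hspa5, read 13.99, 13.65, 13.81 and 13.97 in control 1, control 2, starved 1 and starved 2. Its change was 0.07 ± 0.16, and control 1 and starved 2 were its higher arrays.

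**Figure D5:**
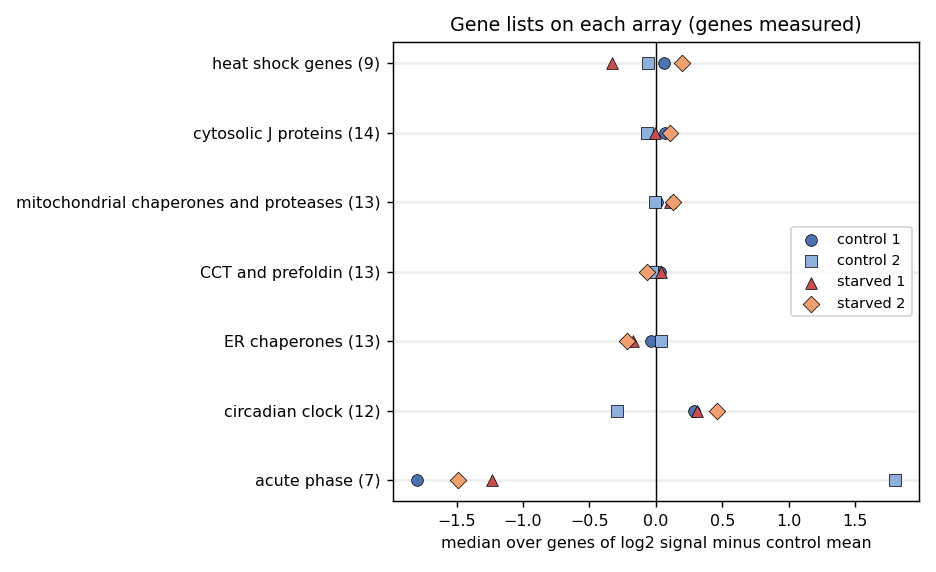
Median over the genes of a list of the log2 signal minus the control mean (x axis) on each array, for the heat shock genes and 6 other lists, with the number of genes measured in brackets. The heat shock genes are at -0.33 on starved 1 and 0.20 on starved 2, the clock genes are lowest on control 2 and the acute phase genes are at 1.80 on control 2 and -1.80 to -1.23 elsewhere.

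Genes of the circadian clock, some of which peak with body temperature, differed between mice of the same group. All 12 measured had a starved mean above the control mean, as did 50.9% of all genes, with a median change of 0.25. The median signal minus the control mean was 0.29 on control 1 and -0.29 on control 2. It was 0.31 on starved 1 and 0.46 on starved 2, so starved 1 lay close to control 1. Of the 12, 0 passed the limma test, where 0.0646% of all genes did. At an unadjusted p under 0.05, 2 were higher, where 5.31% of all genes were. Of the 12, 10 were higher in control 1 than in control 2, with a median difference of 0.57, and 7 were higher in starved 2 than in starved 1, with a median of 0.03. The clock output gene Dbp, named after its values were seen, read 11.97, 10.34, 10.78 and 11.73 in control 1, control 2, starved 1 and starved 2, and Per2, also named after its values were seen, 8.29, 6.90, 7.39 and 8.04. For these 2, control 1 and starved 2 were the higher arrays, as for Hsph1, Dnaja1 and Chordc1. Dbp, Per2 and Chordc1 were picked after their values were seen, so this likeness was selected. Over all genes, 27.1% had control 1 above control 2 together with starved 2 above starved 1, and 6 of 9 heat shock genes did. This is a looser condition than control 1 and starved 2 being the higher arrays. Other clock genes had other orders: Arntl read 5.89, 6.89, 7.42 and 6.86, and Cry1 6.89, 6.18, 7.65 and 7.18, each higher in starved 1 than in starved 2. The part of the clock genes in the heat shock signals was not tested. Acute phase genes were higher in control 2 than in control 1 in 7 of 7 genes, with a median of -3.59 for control 1 minus control 2.

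Markers of the cell types that liver can hold also differed between the starved mice. The median of starved 2 minus starved 1 was -0.12 over 6 hepatocyte markers, 0.18 over 6 Kupffer cell markers, all 6 higher in starved 2, -0.11 over 6 endothelial markers and 0.01 over 6 stellate and mesenchymal markers. It was 0.28 over 4 bile duct markers, all 4 higher in starved 2, 0.31 over 7 blood and immune markers, 0.04 over 5 skeletal muscle markers and 0.06 over 2 adipocyte markers. The bile duct markers had low signals, with gene medians of 4.6 to 6.44, where the array medians were 6.7 to 6.73. Single markers differed between the starved mice by more than the medians of their lists. The widest were the hepatocyte enzyme gene Tat, named after its values were seen, at -1.24, the calprotectin gene S100a8 at 1.10 and the sinusoidal endothelial receptor gene Lyve1 at -0.87. The part of these cell types in the heat shock signals was not tested.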

How the data were processed

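The deposited values are log2 signals that the authors computed by RMA in affy, per the submitters' processing notes, which list no version. Background correction, quantile normalization and summary over probes are part of RMA, which hides any change that all genes share. Without detection calls, low signals were not taken as absence.

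Of 22690 probe sets, 64 Affymetrix controls were left out. Of the other 22626, 20380 had 1 gene symbol in the platform annotation, 691 several and 1555 none. Entrez identifiers in a RefSeq table (GRCm38.p6) gave current symbols for 20351 of them. Probe sets ending in _x_at or _s_at may bind related transcripts.

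The test was limma 3.58.1 (R 4.3.3; lmFit, eBayes), two-sided and without covariates, on starved against control arrays over all 22626 probe sets, with Benjamini-Hochberg adjustment and a threshold of 0.05. The total degrees of freedom were 5.83 (prior 3.83), and the median standard error was 0.133. They rest on the variation among 4 mice, and 2 arrays per group limit the precision. For lists, a gene was read from its probe set of highest mean. The members and lists were chosen with earlier results of these data known. Named were all member probe sets, up to 4 genes of each other list with the smallest p, and Hspa5, Hspa9, Dnaja1, Bag3, Stip1 and Fkbp5; others are marked. The alternatives were a common median, further quantile normalization, a filter of the lowest 40%, 1 or the mean probe set per gene, no _x_at or _s_at probe sets, trend and robust eBayes, a replicate block and each array left out. Replicate numbers were not taken as pairs of mice. The correlation of same-numbered deviations over probe sets was 0.04, which cannot show that the mice were unpaired. On simulated arrays, spreads were drawn from limma's fitted prior, and 200 of 22626 probe sets changed in each of 20 runs. There limma recovered 52.1% of changes of 1 log2 unit and 97.2% of changes of 2, with 4.64% false calls. These shares do not apply to probe sets with wide errors, such as those of Hspa1b (SE 0.60 to 0.68, against the median of 0.133).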

Additional observations from a re-analysis of the deposited data

How the results depend on the processing

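The count of heat shock probe sets or genes past the adjusted threshold was 0 in the fit as reported and in all 12 alternative fits, and so was that of the 91 other chaperone genes. At an unadjusted p under 0.05 the counts were 1 of 20 heat shock and 2592 of all probe sets. The first was 3 with trend and robust settings, against 11.5% of all probe sets, and it moved with the array left out, as given above for the starved mice. The count over all probe sets, 13, was 8 with 1 probe set per gene, 23 without _x_at and _s_at probe sets, 59 with trend and robust settings and 0 with the replicate number as a block (2534 at an unadjusted p under 0.05, limma), and 2 to 57 with 1 array left out. The count of heat shock probe sets whose groups did not overlap, 4, was 1 of 9 genes with 1 probe set per gene (42.2% of all genes), 0 of 9 with the mean of probe sets (42.5%) and 2 of 15 without _x_at and _s_at (41.4%), fewer units in each, and 6 to 17 with 1 array left out, where 67.9% to 73.6% of all probe sets did not overlap. The median change over heat shock genes ran from -0.33 to 0.20 with 1 array left out. The block changed no call of a heat shock probe set.

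Of 132 values of single heat shock probe sets under settings that kept all arrays, 131 kept their direction and 1 reversed, Hspa8 with the mean of probe sets, at -0.06. Most of these values could not move. Trend and robust eBayes, the replicate block and the settings that only leave out probe sets keep the group means of a probe set as they were. Their agreement is therefore no measure of how stable a change is. With 1 array left out, 21 of 80 reversed, none past the threshold. The ranges were, for Hspa1b, -1.52 to 0.73 (1427126_at), -1.57 to 0.61 (1427127_x_at) and -1.27 to 0.63 (1452318_a_at), and for Hsp90aa1 -0.80 to 0.17 (1426645_at), -0.57 to 0.08 (1437497_a_at) and -0.53 to 0.13 (1438902_a_at). For Hsph1 they were -0.57 to 0.59 (1423566_a_at) and -0.33 to 0.45 (1425993_a_at), for Dnajb1 -0.33 to 0.11 (1416755_at) and -0.09 to 0.29 (1416756_at), and for Hspb1 -0.95 to 0.31 (1422943_a_at) and -1.06 to 0.45 (1425964_x_at). Hspd1 ran from -0.18 to 0.20 and Hspe1 1422579_at from -0.31 to 0.08. The other 6 probe sets, those of Hspa1a, Hspa8 and Hspe1 1450668_s_at, kept their direction without each array. For those of Hspa8, whose groups did not overlap, no other outcome was possible. A fit that leaves out an array takes the spread of the lone array from the other group.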

Other observations

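The longer heat shock element forms were also looked up in all measured genes. Of 9887 measured genes with a RefSeq promoter window, 57 held GAANNTTCNNGAA or TTCNNGAANNTTC. Their median change between starved and control mice was 0.03, and starved 2 was above starved 1 in 52.6% of them, against 49.8% of all measured genes with a window. Without the heat shock genes, 54 remained, with a median of starved 2 minus starved 1 of 0.00. These are descriptions of 1 mouse against 1 mouse, with no test.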
